A study of Mus musculus with 35 samples.

Results

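MHC class I presentation was followed through 10 genes, B2m, H2-D1, H2-K1, H2-T23, H2-M3, Tap1, Tap2, Tapbp, Psmb10 and Erap1, picked by symbol from the 19085 genes of the count table. All 10 symbols were in the table and each had reads. The cells were fibroblasts of mouse embryos (MEFs, a connective tissue cell grown here from C57Bl/6J mice in 3% oxygen), each sequenced as its own Smart-seq2 library, a full-length method for polyadenylated RNA whose reads carry no molecular identifiers. One group held 21 cells with micronuclei, small DNA bodies outside the main nucleus, and the other held 14 cells without them. Both groups had received 1 Gy of radiation and were captured by laser 48 h later, after re-seeding on membrane dishes at 32 h and staining of DNA with PicoGreen; an unirradiated group was not analysed here. No culture, embryo or animal was named for any cell, so each group counts as 1 sample and no p-value is given. Cells are numbered here within each group in record order, and these are not the cell numbers of the submitters' titles. Values are CPM, a gene's reads scaled to a common total of gene reads, spike-in RNAs left out.

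Class I molecules carry peptides from inside the cell to its surface, where CD8 T cells read them. The molecule is a heavy chain paired with the light chain β2-microglobulin. Proteasomes cut proteins to peptides, the TAP transporter carries these into the endoplasmic reticulum, and trimming and loading factors fit them to the heavy chain. Interferons and NF-κB are known to raise transcription of most of these genes, and DNA in the cytosol can set off both through the sensor cGAS, which is known to enter micronuclei.

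The light chain and the 2 classical heavy chains share known kinds of upstream enhancer element, so their 250 bases before the transcription start are shown, from RefSeq on GRCm38.p6. The windows are chr2:122147437-122147686 on the plus strand for B2m, chr17:35262844-35263093 on the plus strand for H2-D1 and chr17:34000348-34000597 on the minus strand for H2-K1, the first of 2 starts listed for that gene. Each runs 5′ to 3′ on the gene's strand, and capitals mark letters of an interferon regulatory factor core (AANNGAAA on either strand) and of the NF-κB consensus.
B2m: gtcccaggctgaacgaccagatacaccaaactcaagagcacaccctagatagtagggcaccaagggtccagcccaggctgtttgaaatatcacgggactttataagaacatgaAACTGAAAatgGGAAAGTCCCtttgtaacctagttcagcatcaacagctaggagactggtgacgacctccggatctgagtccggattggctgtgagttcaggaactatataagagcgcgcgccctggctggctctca
H2-D1: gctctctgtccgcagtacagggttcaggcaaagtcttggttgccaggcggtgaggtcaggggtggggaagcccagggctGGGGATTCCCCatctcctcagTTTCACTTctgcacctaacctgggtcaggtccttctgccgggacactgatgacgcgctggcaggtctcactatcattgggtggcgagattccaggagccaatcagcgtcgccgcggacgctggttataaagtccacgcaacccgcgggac
H2-K1: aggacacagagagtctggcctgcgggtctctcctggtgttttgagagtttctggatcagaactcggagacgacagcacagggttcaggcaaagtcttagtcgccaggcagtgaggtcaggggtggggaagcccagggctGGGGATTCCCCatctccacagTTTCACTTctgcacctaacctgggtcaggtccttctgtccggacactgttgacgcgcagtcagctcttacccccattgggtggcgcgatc

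In all 3 promoters an NF-κB match stood close to an interferon regulatory factor core, but the order differed. The core lay upstream of the NF-κB match in B2m and downstream of it in both heavy chains. The core began 137 bases upstream of the start in B2m, 150 in H2-D1 and 90 in H2-K1. The NF-κB match began at 126 bases in B2m, while in both heavy chains a pair of matches overlapped, starting at 171 and 170 bases in H2-D1 and at 111 and 110 bases in H2-K1. The spacing between NF-κB matches and core was the same in both heavy chains. Their distances to the start depend on the start used, for H2-K1 the first of 2 listed. Of the 9 members with a promoter in the RefSeq table, all but Tap2, 5 held the core (B2m, H2-D1, H2-K1, H2-M3 and H2-T23), against 21.6% of all 27025 promoters of that length, and 4 held the NF-κB consensus, against 7.01%. A CCAAT box (CCAAT on either strand) was in 7 of the 9, against 34.5% of all promoters, and a CRE half-site (TGACG on either strand) in 5, against 17.9%. TATAAA was in 1, H2-D1, against 8.12%, and the second listed start of H2-K1 was not searched. The heavy chains are gene copies of each other, so their matches are not separate observations, and a match describes letters only.

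The fibroblast label held in the markers of each group as a whole. In micronucleated cells 9 of 10 fibroblast genes had reads, all but Lum, and their summed level ran from 2873 to 15142 CPM with a median of 7952 CPM. In cells without micronuclei 10 of 10 had reads, from 5026 to 16419 CPM with a median of 9439 CPM. Depth differed: reads on genes per cell ran from 57514 to 1794113 with micronuclei (median 281800) and from 56766 to 2023111 without (median 736715), while genes with at least 1 read had a median of 6812 with micronuclei and 6082 without. Macrophage markers moved with the groups. All 13 had reads in micronucleated cells, 7 of which had any, with a sum of 0 to 16686 CPM and a median of 0. In cells without micronuclei 12 of the 13 were at 0, including the defining genes Ptprc, Adgre1 and Csf1r, and Cd68 alone gave 0 to 64.1 CPM. Micronucleated cell 10 held 12 of the 13 markers with at least 5 reads, at 16686 CPM in all (Lyz2 alone 13946 CPM), together with 2542 CPM of Col1a1 and 2405 CPM of Vim. A doublet of 2 cell types and a single cell cannot be told apart here. Micronucleated cell 6 also stood apart, with 1452 CPM of Csf1r as its only macrophage marker and 2391 genes detected. It had 0 CPM of Col1a2, 281 CPM of Col1a1 and 3068 CPM of Vim. Markers of other types were low: the sums reached at most 76.4 CPM with micronuclei and 22.4 CPM without for dendritic, 10.8 CPM with and 33.4 CPM without for endothelial, and 2.79 CPM with and 28.3 CPM without for epithelial genes.

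To be called measured, a gene needed 5 CPM in the sum of all cells and 5 reads or more in each of 5 cells, which 8390 genes reached, 5 members among them: B2m, H2-D1, H2-K1, Tapbp and Psmb10. The other 5, H2-T23, H2-M3, Tap1, Tap2 and Erap1, reached 5 reads in 1 to 4 cells each. Reads were summed over each group, 11084425 with micronuclei and 11612303 without, and compared as log2 of (CPM + 1) with micronuclei over (CPM + 1) without. All 5 measured members were higher in micronucleated cells, as were 56% of all measured genes. Their median log2 ratio was 0.48, against 0.15 over all measured genes. With equal weight for each cell 4 of the 5 were higher, Psmb10 being lower there and also with scran (-0.39) and spike-in scaling (-0.08), and the median was 0.19, against 0.05 over all measured genes. Past a log2 ratio of 1 stood 1 member, H2-D1, where 22.9% of measured genes reached that. In either direction 37.7% of measured genes passed it, and 14.7% stood at or below -1, where no measured member did. Higher in summed reads, with equal weights and without each cell in turn were 4 members, all of the measured ones but Psmb10, against 33.5% of measured genes, and 0 were lower throughout, against 20.1%. Because a sum follows the deepest libraries, each member is described per cell, summed, and with equal weights.

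**Figure D1:**
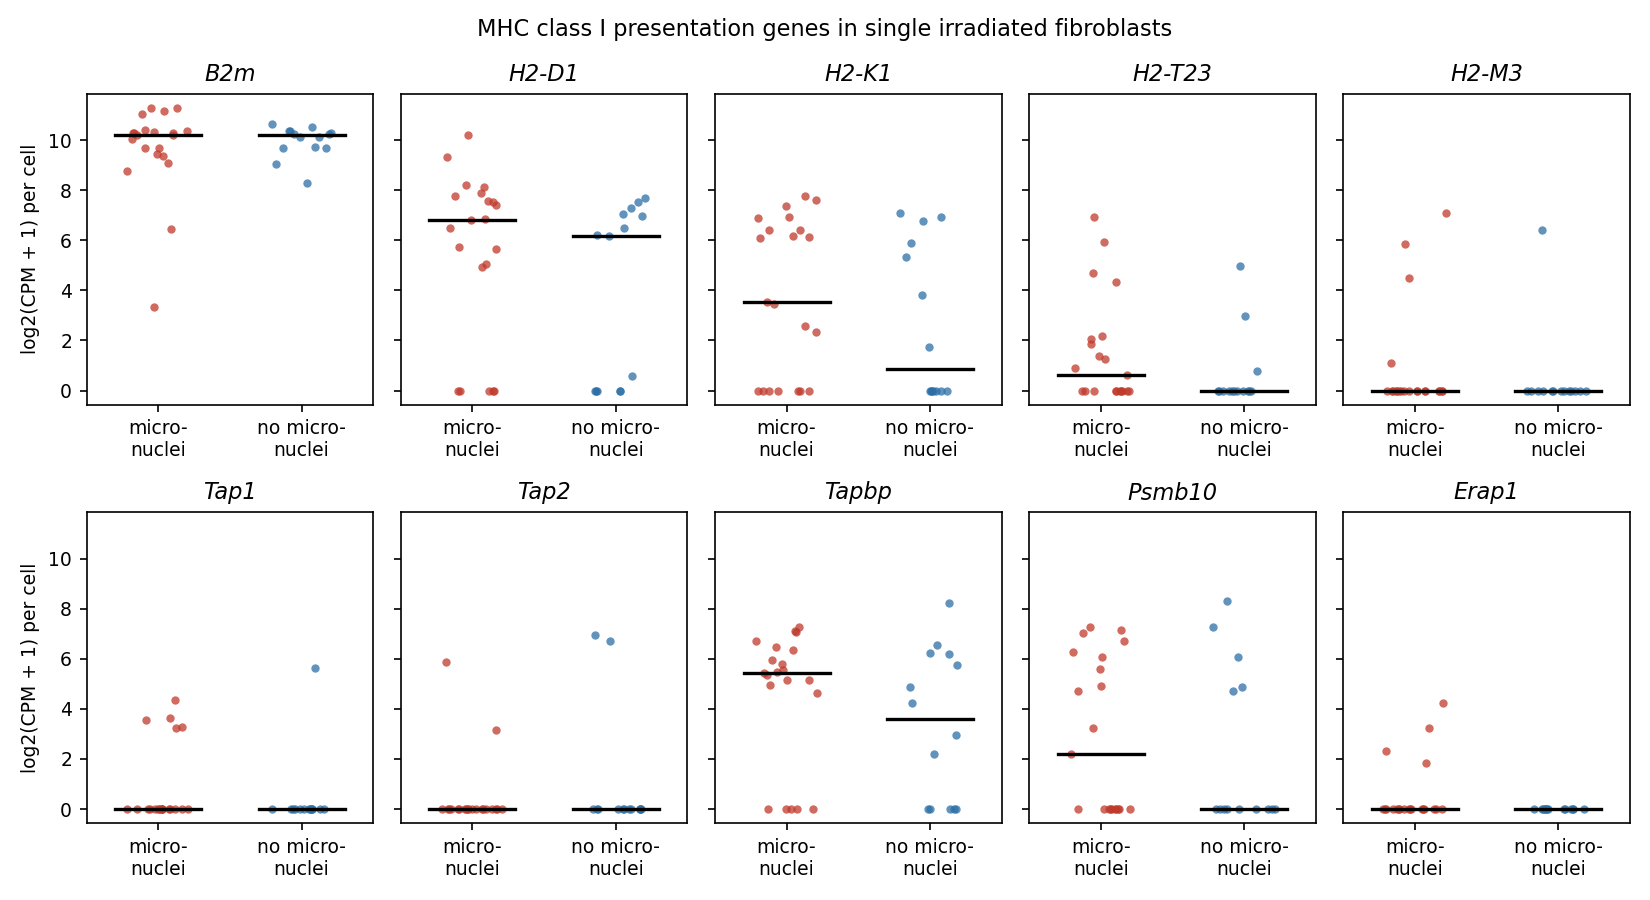
Level of each of the 10 genes in every cell, as log2(CPM + 1), micronucleated cells (n = 21) left of cells without micronuclei (n = 14). Each point is a cell and the bar is the group's median. B2m was present in every cell, the heavy chains were at 0 in some cells of both groups, and Tap1, Tap2, H2-M3 and Erap1 were at 0 in most.

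B2m, the light chain common to class I molecules (chr2:122147686-122153083, plus strand), was the one member with reads in every cell. It ran from 9.08 to 2509 CPM with a median of 1168 CPM in the 21 micronucleated cells, and from 309 to 1585 CPM with a median of 1172 CPM in the 14 cells without. The medians were nearly equal and the groups overlapped, with 4 micronucleated cells (3, 11, 14 and 2) beyond the top cell without micronuclei and a wider spread: 1169 ± 705 CPM with micronuclei against 1068 ± 361 CPM without (mean ± SD over cells). Summed reads gave 1422 CPM (95% Poisson interval 1400 to 1444) with micronuclei and 1018 CPM (999.6 to 1036) without, a log2 ratio of 0.48. With equal weights the ratio was 0.13, and the mean of log2(CPM + 1) was lower with micronuclei by 0.29, with SDs of 1.79 with micronuclei and 0.64 without. The direction for B2m therefore differed between the measures, but the lower log2 mean rests on 1 cell. Micronucleated cell 6, with 2391 genes detected, had only 2 B2m reads, the lowest of all cells. It stood at 3.33 on the log2 scale, against a mean of 9.66 for its group and 9.95 for cells without micronuclei. Poisson intervals here and below cover counting error only.

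H2-D1, the classical heavy chain of the H-2D locus (chr17:35262730-35267499, plus strand), was the member with the largest ratio among those measured. It ran from 0 to 1182 CPM with a median of 112 CPM in micronucleated cells, and from 0 to 207 CPM with a median of 71.3 CPM in cells without. In each group 5 cells had no read, and 6 micronucleated cells (10, 13, 15, 8, 1 and 5) stood beyond the top cell without micronuclei, so the groups overlapped over most of their range. Means were 184 ± 274 CPM with micronuclei and 73.7 ± 75.9 CPM without (SD over cells). Summed reads gave 229.0 CPM (Poisson 220 to 238) with micronuclei and 61.7 CPM (57.3 to 66.4) without, a log2 ratio of 1.87. With equal weights it was 1.31.

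Micronucleated cells 13 and 10 carried much of that difference. Micronucleated cell 13 gave 1153 of 3255 reads, or 35.4%, and without it the log2 ratio was 1.26; 33.3% of measured genes had a cell that large, so such weight was common in these libraries. Cell 10, the one with macrophage markers, had the highest H2-D1 level of all cells, and without it the ratio was 1.47 on summed reads and 0.86 with equal weights. Without the 4 micronucleated cells that held at least 5 reads of 2 or more macrophage markers (1, 4, 10 and 18) it was 1.48. The part of the macrophage markers in the result beyond this was not tested. In cells with 5000 to 8000 genes detected, 13 with micronuclei and 8 without, the ratio was 0.72, below the threshold of 1, against 0.03 for all measured genes. Micronucleated cell 13, with 6362 genes detected, lies in that range. The next highest H2-D1 count among micronucleated cells there was 78 reads, in cell 15. The value of 0.72 thus rests on cell 13, and the ratio there without it was not computed.

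H2-K1, the heavy chain of the H-2K locus (chr17:33996017-34000347, minus strand), ran from 0 to 217 CPM with a median of 10.5 CPM in micronucleated cells and from 0 to 137 CPM with a median of 1.18 CPM in the others. It was at 0 in 7 of 21 cells with micronuclei and in 7 of 14 without, and 3 micronucleated cells (4, 15 and 13) exceeded the top cell without micronuclei. Summed reads gave 61.5 CPM (Poisson 57.0 to 66.3) with micronuclei and 36.4 CPM (33.04 to 40.1) without, a log2 ratio of 0.74, the same with equal weights. The sum again leaned on micronucleated cell 13, with 26.9% of the reads: the log2 ratio was 0.18 without it, and 1.35 when cell 4 with no micronuclei was left out. In cells with 5000 to 8000 genes it was 0.30, with micronucleated cell 13 among them, and the ratio there without that cell was not computed. Reads of H2-D1 and H2-K1 are uncertain where the copies are alike: of 50-base windows of the longest coding transcript, 14.3% of H2-D1 and 8.79% of H2-K1 occur in another gene as well, and how such reads were counted is not given in the sources used here.

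**Figure D2:**
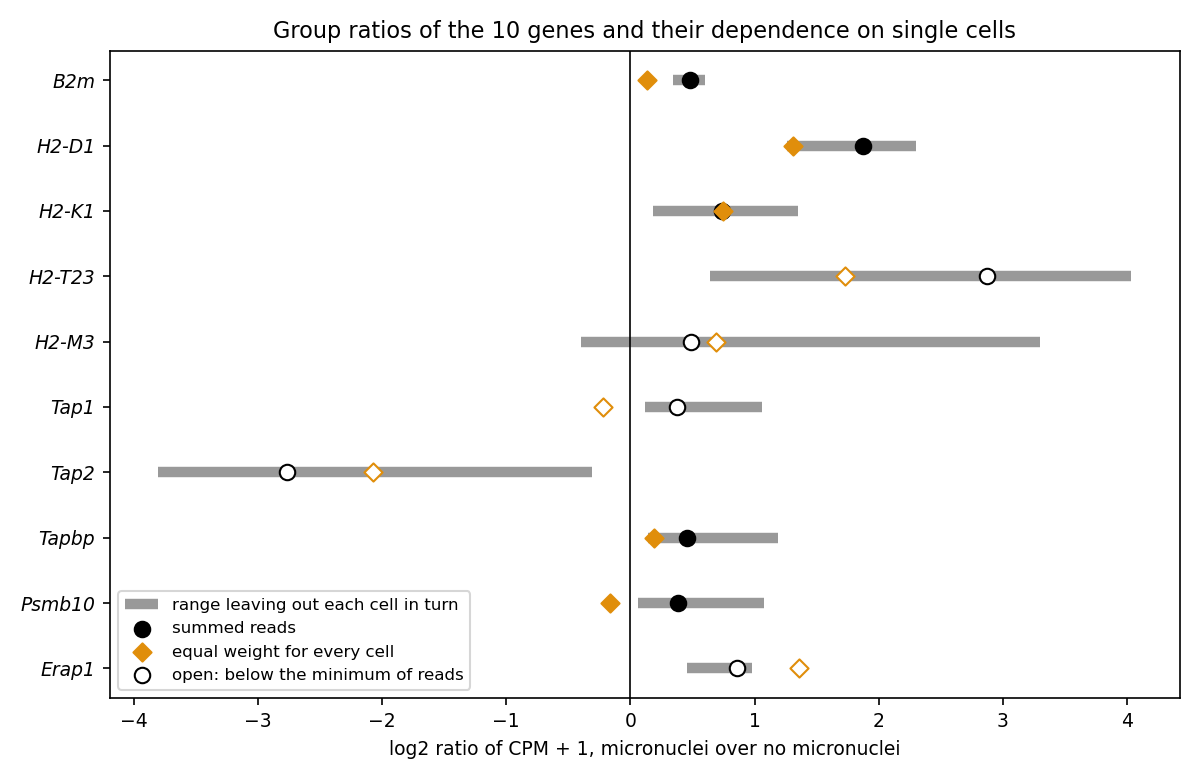
Log2 ratio of CPM + 1, micronuclei over no micronuclei, for each gene from summed reads (circles) and with equal weight for every cell (diamonds), with grey bars for the range when each of the 35 cells is left out in turn. Open symbols are genes below the minimum of reads, and the value for Erap1, with 0 reads in the group without micronuclei, depends on the 1 CPM added. The bar of H2-D1 runs from 1.26 to 2.30, and those of H2-T23, H2-M3 and Tap2 are the widest.

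The non-classical heavy chains were rare. H2-T23, which encodes Qa-1, the ligand of the CD94/NKG2A receptor of natural killer cells (chr17:36029773-36032855, minus strand), had a read in 11 of 21 micronucleated cells and in 3 of 14 others, and at least 5 reads in 3 and 1 of them. Its level ran from 0 to 120 CPM (median 0.557 CPM) with micronuclei and from 0 to 30.4 CPM (median 0) without. Most of its 222 reads, 77.9%, came from micronucleated cell 7, so the log2 ratio of 2.87 on summed reads became 0.64 without that cell, and 4.03 when cell 9 with no micronuclei was left out. It also shares 28.8% of its 50-base windows with other genes. H2-M3, which presents N-formylated peptides (chr17:37270220-37274484, plus strand), had reads in 4 of 21 cells with micronuclei, up to 135 CPM, and in 1 of 14 without, cell 10 at 82.9 CPM. All 70 of its reads without micronuclei came from that cell, against 98 reads in micronucleated cells. Its log2 ratio of 0.49 became -0.40 when micronucleated cell 9 was left out and 3.30 when its only source without micronuclei was, so no direction can be given.

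Psmb10, the interferon-inducible β2i subunit that replaces Psmb7 in the immunoproteasome (chr8:105935735-105938444, minus strand), ran from 0 to 152 CPM with a median of 3.55 CPM with micronuclei, and from 0 to 311 CPM with a median of 0 without. It had reads in 11 of 21 micronucleated cells and 5 of 14 others. The 2 highest cells, 1 and 4, were without micronuclei. Summed reads gave 56.3 CPM (Poisson 52.0 to 60.9) with micronuclei and 43.0 CPM (39.3 to 46.9) without, a log2 ratio of 0.38, but equal weights gave -0.16, and leaving out 1 cell gave 0.06 (micronucleated cell 14) to 1.08 (cell 4 without micronuclei). Set against Psmb7 per kilobase of merged exons, Psmb10 stood at 33.02 against 49.02 CPM per kb for Psmb7 with micronuclei and at 25.2 against 35.6 CPM per kb without, which made it 40.2% of the pair with micronuclei and 41.4% without. With equal weight for each cell Psmb10 was 31.01% of the pair with micronuclei and 40.8% without, so how close the shares lie depends on the weighting. The shares also depend on the length used. Merged exons take in all isoforms: 1705 bases for Psmb10, whose longest coding transcript has 1311, and 3421 bases for Psmb7. Shares by transcript length were not computed.

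The other inducible catalytic subunits were close to 0. Psmb8 (β5i) had 53 reads, or 4.78 CPM, with micronuclei and 16 reads, or 1.38 CPM, without, and 58.0% of all its reads came from micronucleated cell 10; its log2 ratio was 1.28, -0.09 without that cell and 2.27 when cell 4 with no micronuclei was left out. Psmb9 (β1i) had 2 reads, both in micronucleated cell 15, and 0 reads without micronuclei. Psmb9 shares 212 exonic bases with Tap1 on the opposite strand, and Smart-seq2 does not mark strand, so reads there cannot be assigned to one of them.

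The TAP transporter was detected in few cells. Tap1 (chr17:34187553-34197225, plus strand) had 12 reads in 5 of 21 micronucleated cells, none of which reached 5 reads, and 7 reads in 1 of 14 others. That is 1.08 CPM (Poisson 0.559 to 1.89) with micronuclei and 0.603 CPM (0.242 to 1.24) without. Tap2 (chr17:34203527-34216321, plus strand) had 20 reads in 2 micronucleated cells, up to 56.8 CPM, and 210 reads in 2 cells without, at 122 and 104 CPM. Its log2 ratio of -2.77 made it the only member lower in summed reads with micronuclei, yet 80.4% of the reads came from cell 4 without micronuclei, and the ratio was -0.31 without that cell and -3.80 without micronucleated cell 1. Tap2 overlaps 698 exonic bases of antisense transcripts. Tap1 and Tap2, which pair to form the transporter, were seen together in 1 cell, micronucleated cell 1, which had reads of all 10 genes.

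Tapbp (tapasin), the bridge between TAP and the empty heavy chain (chr17:33915899-33929292, plus strand), reached 5 reads in more micronucleated cells than any other member but B2m. It ran from 0 to 154 CPM with a median of 41.8 CPM with micronuclei, and from 0 to 298 CPM with a median of 12.2 CPM without. At least 5 reads were found in 15 of 21 micronucleated cells, 71.4% (exact binomial interval 47.8% to 88.7%), and in 6 of 14 others, 42.9% (17.7% to 71.1%). Thinned to 119337 reads per cell the counts were 9 of 17 with micronuclei and 5 of 13 without. Summed reads gave 65.5 CPM (Poisson 60.8 to 70.4) with micronuclei and 47.4 CPM (43.5 to 51.5) without, a log2 ratio of 0.46. It was 0.19 with equal weights, 1.19 when cell 6 with no micronuclei was left out, which held 19.3% of the reads, 0.14 without micronucleated cell 7, and -0.15 on thinned reads. Tapbp overlaps 1053 exonic bases of other genes, 149 of them of Zbtb22, a coding gene on the same strand, and the others of an antisense transcript.

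Erap1, the aminopeptidase that trims peptides in the endoplasmic reticulum (chr13:74639568-74693201, plus strand), had 9 reads in 4 of 21 micronucleated cells, 5 of them in cell 1. It had 0 reads in the 14 cells without micronuclei (Poisson 0 to 0.318 CPM), against 0.812 CPM (Poisson 0.371 to 1.54) with micronuclei. Among Erap1 exons, 834 bases also belong to Cast on the opposite strand.

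To set different genes side by side, CPM was divided by kilobases of merged exons. That length takes in every isoform, unevenly between genes. It is 2938 bases for H2-K1, whose longest coding transcript has 1619, and 860 for B2m by either measure. The order of genes with close values, such as Tapbp and H2-K1, therefore depends on the length used. With micronuclei B2m led at 1653 CPM per kb, ahead of H2-D1 at 88.8, Psmb10 at 33.02, H2-K1 at 20.9, Tapbp at 18.1, H2-T23 at 6.34 and H2-M3 at 6.15 CPM per kb, while Tap2, Tap1 and Erap1 stayed below 1 CPM per kb. Without micronuclei B2m stood at 1184 CPM per kb, followed by Psmb10 at 25.2, H2-D1 at 23.9, Tapbp at 13.1, H2-K1 at 12.4, Tap2 at 4.78 and H2-M3 at 4.19 CPM per kb, with H2-T23, Tap1 and Erap1 below 1 CPM per kb. The light chain was thus far above every heavy chain in both groups. In summed reads Psmb10 stood ahead of H2-D1 without micronuclei, but in mean CPM per kb with equal weights H2-D1 led there too, at 28.6 against 24.5 for Psmb10.

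Counted per cell, micronucleated cells had a median of 4 members with at least 5 reads (SD 1.86, range 0 to 7) and the others a median of 3 (SD 1.33, range 1 to 6), a difference within the spread over cells. At least 1 read was found for a median of 5 members with micronuclei and 3 without, and thinned to equal depth the medians at 5 reads were 3 with micronuclei and 2 without. In cells with 5000 to 8000 genes they were 4 with micronuclei and 3.5 without. Both classical heavy chains had reads in 13 of 21 micronucleated cells and 5 of 14 others. H2-D1 alone was seen in 3 cells with micronuclei and 4 without, H2-K1 alone in 1 with and 2 without, and neither in 4 with and 3 without.

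**Figure D3:**
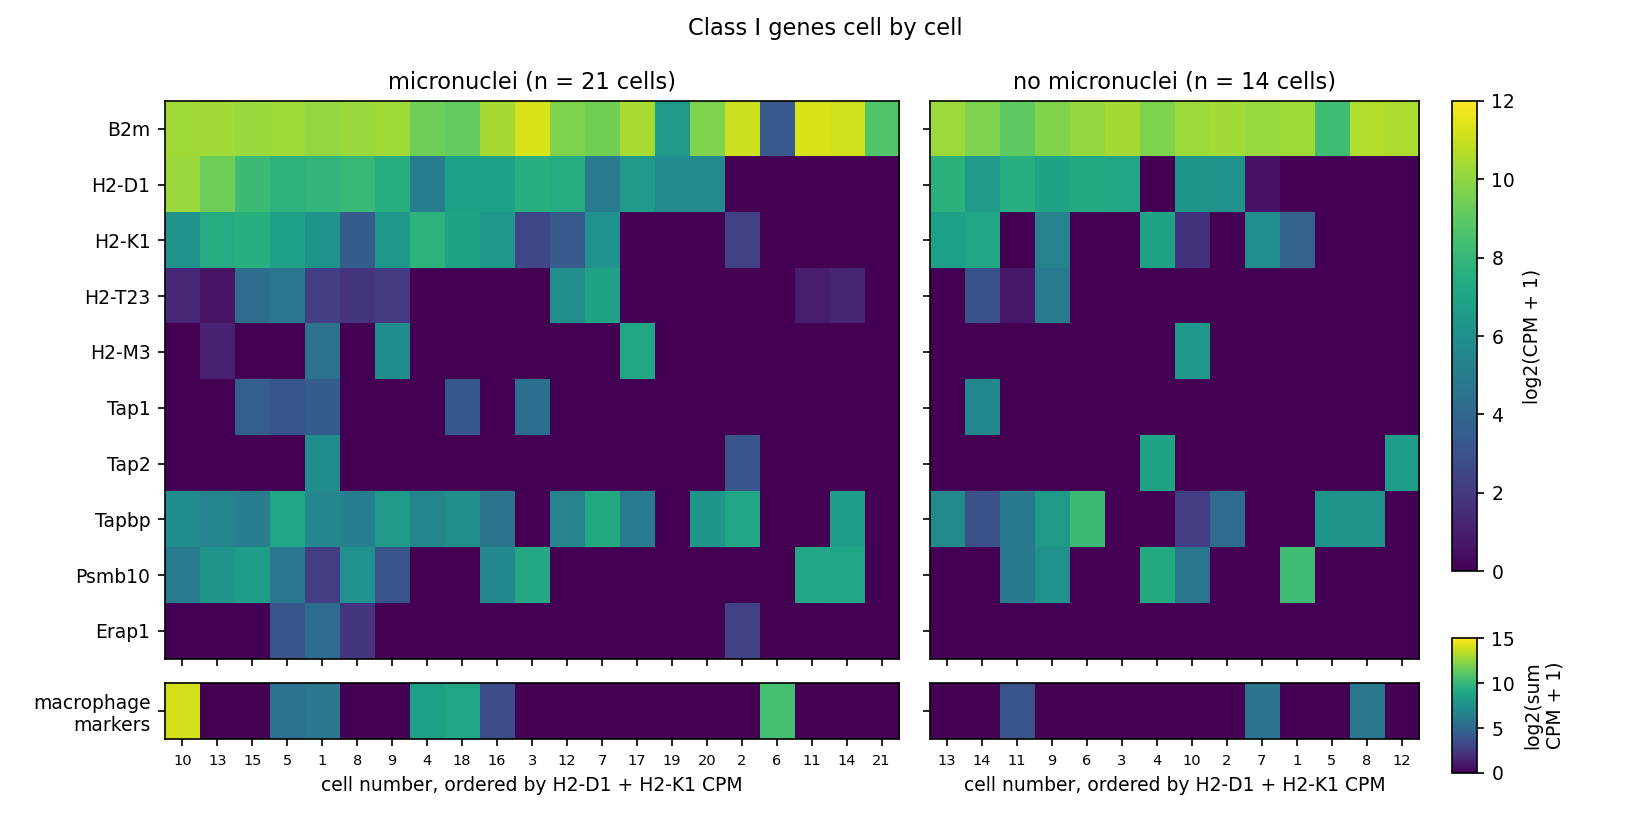
Log2(CPM + 1) of the 10 genes in each cell, micronucleated cells left of cells without, each group ordered from high to low summed CPM of H2-D1 and H2-K1, with the summed level of 13 macrophage markers on its own scale underneath. The right-hand columns of both panels include cells with a high B2m level and no heavy chain read, and the brightest marker square is micronucleated cell 10.

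Light and heavy chain did not follow each other from cell to cell. Of the 7 cells with no H2-D1 or H2-K1 read, 4 of them micronucleated (6, 11, 14 and 21) and 3 not (5, 8 and 12), several were among the richest in B2m. Micronucleated cells 11 and 14 had 2889 and 3312 B2m reads, or 2501 and 2260 CPM, and 0 heavy chain reads, where 3 reads would have been 2.60 and 2.05 CPM. Cell 8 without micronuclei was alike, with 2249 B2m reads (1585 CPM), the highest level of its group, and a floor of 2.11 CPM. Those floors lie below the median heavy chain level of either group, 191 CPM with micronuclei and 98.3 CPM without. They reflect read depth only, so a transcript missed in the library cannot be told apart from one absent in the cell. Genes detected were 2391, 5054, 6641 and 3097 in micronucleated cells 6, 11, 14 and 21, against a group median of 6812. In cells 5, 8 and 12 without micronuclei they were 3926, 4118 and 5646, against 6082. As a percentage of the B2m level, the summed H2-D1 and H2-K1 level had a median of 21.2% with micronuclei (range 0 to 99.6%) and 8.04% without (0 to 34.9%), and the highest in CPM was 1251 with micronuclei against 315 without, with 4 micronucleated cells above 315. The highest percentage and the highest CPM with micronuclei both belong to cell 10, and the next cell, 13, stood at 62.6% and 808 CPM.

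Spearman correlations of CPM over the 35 cells describe this further; cells share library depth and RNA quality, so no p is given. The median over the 10 pairs of the 5 measured members was 0.20, against 0.07 over all pairs of measured genes, whose 5th to 95th percentiles were -0.23 to 0.36. Within micronucleated cells the members' median was 0.16, and within the others -0.20, against 0.07 for all pairs in each group. H2-D1 and H2-K1 had the highest pair value, 0.45 over 35 cells (Pearson 0.42 on log2 values), 0.62 with micronuclei and 0.05 without; thinned to equal depth it was 0.49, and without the 2 cells farthest from the median it was 0.39. B2m and Psmb10 stood at 0.70 with micronuclei and -0.27 without. With reads on genes per cell, B2m stood at 0.53 with micronuclei and -0.31 without, and Psmb10 at 0.45 with and 0.20 without. B2m with H2-D1 was at 0.05 and with H2-K1 at -0.10 over 35 cells, both inside that range. The difference between groups was not tested for any pair.

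**Figure D4:**
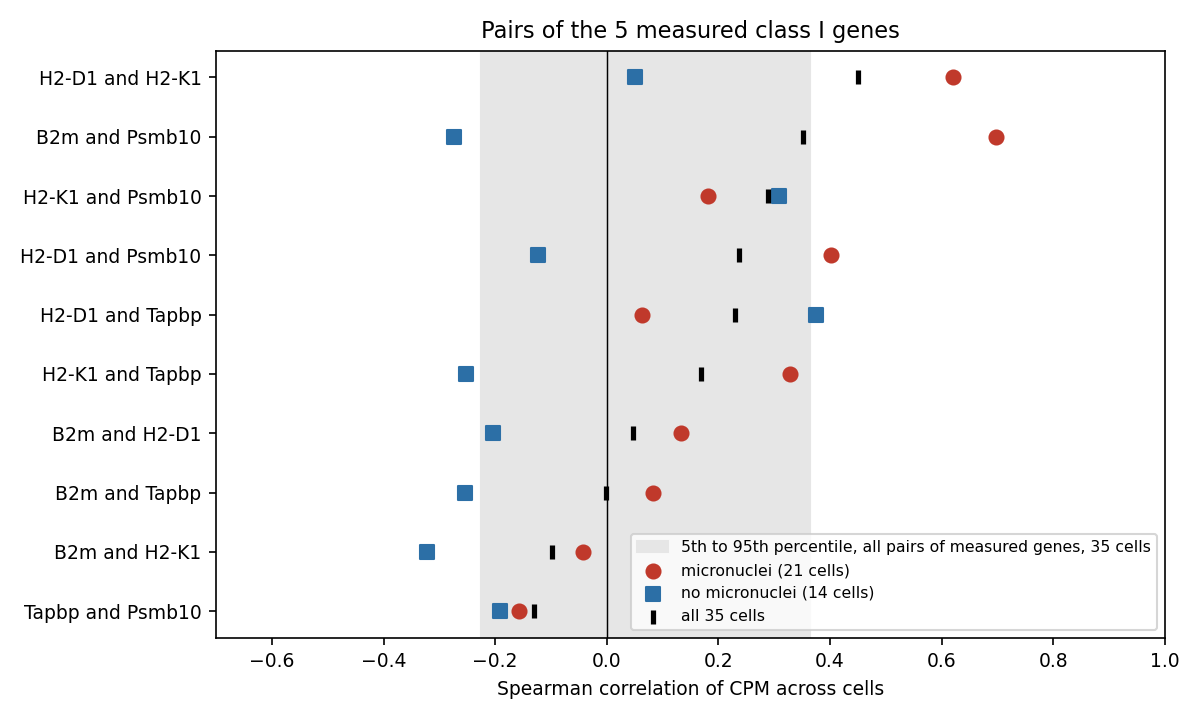
Spearman correlation of CPM for each pair of the 5 measured genes, in 21 micronucleated cells (circles), 14 cells without (squares) and all 35 cells (bars), with the 5th to 95th percentile of all pairs of measured genes over 35 cells shaded. H2-D1 with H2-K1 lies outside the shading over 35 cells at 0.45, and B2m with H2-D1 or H2-K1 lies inside it at 0.05 and -0.10.

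The heavy chains also moved with how many genes a cell yielded. The summed H2-D1 and H2-K1 level had a Spearman correlation of 0.70 with the number of genes detected (0.67 with micronuclei, 0.64 without), while B2m stood at 0.09 and the median over all measured genes was 0.27 (5th to 95th percentiles -0.09 to 0.54). H2-D1 alone was at 0.66 (0.57 with micronuclei, 0.67 without) and H2-K1 at 0.49, which was 0.66 with micronuclei and 0.12 without. Tapbp was at 0.32 and Psmb10 at 0.30. The group with micronuclei had the higher median number of genes detected, and its part in the H2-D1 ratio beyond the value of 0.72 within 5000 to 8000 genes was not tested.

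**Figure D5:**
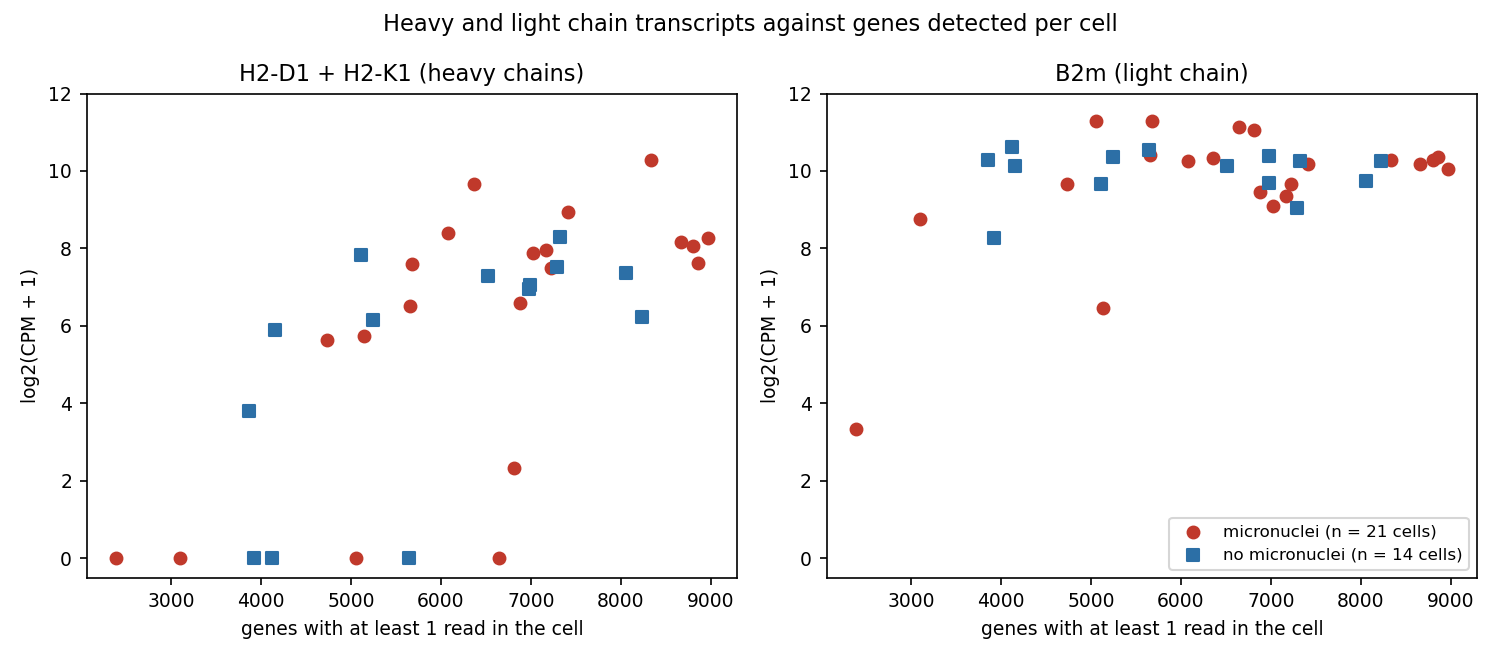
Summed level of H2-D1 and H2-K1 (left) and level of B2m (right), as log2(CPM + 1), against genes with at least 1 read, for 21 micronucleated cells (circles) and 14 cells without (squares). Heavy chain levels are higher in cells with more genes (Spearman 0.70) and B2m levels are not (0.09).

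The genes most like B2m among 8385, ranked by the smaller of the Spearman values within each group, were Ndufa9 (0.55 with micronuclei, 0.63 without), Cd63 (0.66 with, 0.55 without), Tmem160 (0.54 with, 0.72 without), Baiap2 (0.61 with, 0.52 without) and Eif4a2 (0.55 with, 0.52 without). None is a class I gene. Those most like the summed heavy chains were Scarb1 (0.75 with, 0.72 without), Ptpn12 (0.68 in each), Akr1b8 (0.68 in each), Zdhhc13 (0.66 with, 0.64 without) and Stard7 (0.63 with, 0.69 without). The values are the extremes of many genes over 21 and 14 cells and describe these cells only.

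The partners of the loading complex were split in direction. Of 6 listed, 5 were measured, 2 higher and 3 lower with micronuclei, with a median log2 ratio of -0.10 against 0.15 over all measured genes. Canx (calnexin), which folds the free heavy chain, was past a log2 ratio of 1: 1292 CPM with micronuclei and 3280 CPM without, a log2 ratio of -1.34, -1.19 with equal weights and -1.44 to -0.90 when 1 cell was left out. Calr (calreticulin), its soluble relative, was at 480 CPM with micronuclei and 709 CPM without (log2 ratio -0.56, equal weights -0.72). Pdia3 (ERp57), the oxidoreductase partnered with tapasin, was at 1087 CPM with micronuclei and 800 CPM without (0.44, equal weights 0.34). Canx and Calr kept their sign with TMM and scran factors but not with spike-ins as the scale, where Canx stood at 0.11 and Calr at 0.51, both below the median of 1.04 that all measured genes then had.

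Peptide supply outside the members was mixed too. All 3 constitutive catalytic subunits were higher with micronuclei in summed reads (median 0.46), though Psmb6 was at -0.17 with equal weights. Of 7 other peptidases 5 were higher in summed reads (median 0.11), none past 1, and 4 of the 5 changed sign with TMM or scran factors. Of 6 immunoproteasome and activator genes, 4 were measured, 2 higher and 2 lower. Psme2 (PA28β), a subunit of the inducible 11S activator, was at 174 CPM with micronuclei and 72.5 CPM without (log2 ratio 1.25, equal weights 0.84, and 0.87 to 1.58 without each cell). Its partner Psme1 (PA28α) was at 50.5 CPM with and 78.2 CPM without (-0.62, equal weights -0.27), at 0.49 when cell 7 with no micronuclei was left out and at -1.81 without micronucleated cell 13. Psme3 (PA28γ), the nuclear activator, was at 43.8 CPM with and 152 CPM without (-1.77), at -0.70 when cell 5 with no micronuclei was left out and at 0.04 with spike-in scaling.

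Of 16 transcription factors of class I promoters, 10 were measured, 5 higher and 5 lower with micronuclei, with a median of -0.19. Nlrc5, the class I transactivator, had 5 reads, all in micronucleated cell 10, the cell with macrophage markers, and 0 reads without micronuclei. Irf1, an interferon-induced activator, was below the minimum of reads, with 11 reads in 6 cells with micronuclei (0.992 CPM) and 60 reads in 2 cells without (5.17 CPM). Its log2 ratio of -1.63 was -0.83 when cell 11 with no micronuclei was left out and -0.08 with equal weights, and its mean log2 level was higher with micronuclei by 0.28. Rela, the p65 subunit of NF-κB, was at 59.0 CPM with and 25.1 CPM without (1.20, equal weights 0.17, scran -0.10). Its ratio was 0.56 without micronucleated cell 13 and 2.57 when cell 1 with no micronuclei was left out. Rfxap, of the RFX complex, was at 4.15 CPM with and 33.5 CPM without (-2.74), of which cell 8 without micronuclei held 72.6%, and at -0.66 without it. Atf1 was at 18.8 CPM with and 52.9 CPM without (-1.45), and at -0.39 when cell 7 with no micronuclei was left out. With spike-in scaling Rfxap, Atf1 and Irf1 were at 0.16, 0.30 and 0.76.

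Of 9 interferon receptor and kinase genes, 7 were measured, 5 higher and 2 lower (median 0.20). Ifngr2, a chain of the interferon-γ receptor, was at 195 CPM with micronuclei and 85.7 CPM without (log2 ratio 1.18, equal weights 0.80, and 0.91 to 1.30 without each cell). Socs1, the feedback inhibitor of that receptor, was at 11.6 CPM with and 2.84 CPM without (1.72), at 0.52 without micronucleated cell 13 and at 3.66 when cell 9 with no micronuclei was left out. Of 16 other class I-like genes 8 were in the table and 3 measured. Fcgrt, the β2-microglobulin-bound Fc receptor, was at 38.3 CPM with and 6.46 CPM without (2.40), with 66.5% of its reads in micronucleated cell 13. Its ratio was 0.55 without that cell and 5.16 when cell 4 with no micronuclei was left out. H2-T22 was at 68.7 CPM with and 87.5 CPM without (-0.34, equal weights -0.39), at -1.40 without micronucleated cell 7 and at 1.36 with spike-in scaling. Class II genes, which mark professional presenting cells, were scarce: 5 of 8 were in the table and none was measured. H2-Ab1 had 68 reads with micronuclei, 64.7% of them in cell 3, and 0 without. Ctss had 311 reads with micronuclei, 307 of them in cell 10, and 0 without. H2-DMa had 32 reads with micronuclei and 27 without, H2-DMb1 had 4 with and 20 without, and H2-Eb1 had 0 with and 1 without. Cd74 was not in the count table.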

How the data were processed

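The deposited table holds raw read counts of 19147 features, 19085 genes and 62 ERCC spike-ins, in 35 cells. Per the submitters' processing notes, the authors aligned reads with STAR to GRCm38.p5, and per the deposited phenotype table counted them with Rsubread and removed cells by spike-in share, genes and counts with scater. The sources used here do not give versions, strand use, culture or date, so no batch could be compared. No further cells were removed and no doublet caller was run on 35 picked cells. No 2 of the 595 pairs of cells were identical. The number of unused columns was 0.

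CPM, ratios (1 CPM added) and 95% Poisson and Clopper-Pearson intervals were computed with scipy 1.17.1, pandas 2.3.3 and numpy 2.4.6 under Python 3.11.15, and plotted with matplotlib 3.10.9. Poisson intervals take in counting error of reads alone, and PCR copies of a molecule are counted as separate reads; Clopper-Pearson intervals take in counting error of the number of cells alone. TMM factors came from edgeR 4.0.16 and size factors from scran 1.30.0 in R 4.3.3. Thinning drew 119337 reads per cell and left out 5 shallower cells, 4 with micronuclei and 1 without. The ratio step was tested on simulated data. Positions and exon lengths are from GENCODE M21 on GRCm38, matched by symbol. The rule for naming genes outside the members took each measured gene of a list at or past a log2 ratio of 1 either way with the same sign under equal weights, and 9 genes always, with the genes most like B2m and the heavy chains. The members and lists were chosen with earlier results of these data known. Of the genes the rule names, 1 is not reported here, nor is 1 cell type marker.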

Additional observations from a re-analysis of the deposited data

How the results depend on the processing

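The 5 measured members were all higher with micronuclei when any 1 of the 35 cells was left out, and the difference in members detected stayed at 1. Without filter 9 of 10 members with reads were higher, as were 59.8% of all genes with reads, and after thinning 3 of 5, against 53.4% of measured genes, Tapbp and Psmb10 then being lower. The median log2 ratio of 0.48 was 0.35 to 1.08 without 1 cell (1.08 without cell 4 with no micronuclei), 0.19 with equal weights, 1.11 as a difference of mean log2 CPM, 0.10 with scran factors, 1.23 with spike-in scaling, 0.29 after thinning and 0.19 with equal weights without micronucleated cell 10. All measured genes then had medians of 0.05, 0.30, -0.01, 1.04, 0.07 and 0.05. That median shifted by 0.89 under spike-in scaling, 0.15 with mean log2 values, -0.13 with TMM, -0.15 with scran and -0.12 in cells with 5000 to 8000 genes. The median correlation of 0.20 was 0.16 to 0.26 without 1 cell, 0.077 after thinning, 0.15 without 6 cells of few genes (under 4000) or high mitochondrial share (over 9%), 0.11 in cells with 5000 to 8000 genes and -0.20 within cells without micronuclei; the cause was not tested. The sets of cells left out by markers, genes or mitochondrial share, and the range of 5000 to 8000 genes, were chosen after seeing the data. Other settings (0.1 or 5 CPM added, a stricter filter of 20 CPM and 10 cells, totals without mitochondrial reads) left these values on the same side. No paired analysis was possible because the labels link no cell of one group to a cell of the other. Depth limits the rare members most: in the median cell 3 reads equal 10.6 CPM with micronuclei and 4.13 CPM without, so levels of Tap1, Tap2, H2-M3 and Erap1 in most cells could not be resolved.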
